A study of Homo sapiens with 5 samples.

Results

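The genes described here form the MYC, MAX and MLX network, a family of basic helix-loop-helix leucine zipper proteins. They were chosen by symbol from 10 names, and 9 of them had a row in the deposited table of 14084 rows (MYC, MYCN, MAX, MXD4, MXI1, MNT, MLX, MLXIP and MGA). MXD3, the remaining name, was not analysed here. All 9 passed the filter on low counts that left 11335 rows for testing. Ribosome footprints, the stretches of mRNA left after nuclease digestion because a ribosome covers them, were counted in HAP1, a human cell line that carries a near-haploid genome. There were 2 wild-type libraries and 3 libraries with a METTL18 knockout; METTL18 is the methyltransferase that modifies a histidine of the ribosomal protein RPL3. No treatment separates the groups. The sources used here do not say whether the knockout is 1 clone or whether the libraries come from separate cultures. The p-values below therefore measure the spread between these libraries only, which may be technical.

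MAX is the shared partner of one arm of this network. MYC and MYCN pair with MAX, bind the E-box CACGTG and recruit coactivators to growth genes. MXD4, MXI1 and MNT pair with the same MAX and bring the SIN3 corepressor to the same kind of site, so they compete with MYC. MGA, a much larger protein, pairs with MAX inside a Polycomb complex, PRC1.6, known for holding germline genes silent. MLX is the centre of the other arm: it pairs with MLXIP (MondoA), which senses glucose 6-phosphate and drives TXNIP, and it also pairs with MNT and MXD4. In these proteins a change in 1 partner alters which pairs can form, so levels are given below both gene by gene and relative to each other.

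Total counts were 4887380 to 5302160 per wild-type library and 16339574 to 17629199 per knockout library, so the knockout was sequenced 3.33 times as deeply. When reads of the knockout were drawn down to the wild-type total (an alternative added after the data were seen), the member calls stayed at 5 higher and 1 lower. METTL18 itself stood at 5.71 ± 0.211 CPM (SD, n = 2) in the wild type and 2.10 ± 0.117 CPM (SD, n = 3) in the knockout. The labelled line was checked against markers. Of 4 genes listed for its adherent state, VIM, KRT18 and CDH2 were in the table, and their summed level was 399 to 404 CPM in the wild type and 1401 to 1452 CPM in the knockout. VIM made up most of that change (129 to 1069 CPM on average), with KRT18 at 145 and 171 CPM and CDH2 at 127 and 182 CPM. BCR and ABL1, the fusion partners of the parent leukaemia line, summed to 7.75 to 7.87 CPM in the wild type and 12.6 to 13.3 CPM in the knockout. Of 7 listed blood-cell genes, 4 were in the table and 1 of these, TAL1, was tested; their summed level was 6.95 to 10.4 CPM in the wild type and 1.84 to 2.58 CPM in the knockout, with CD33 at 0 in all 5 libraries. ABL1 made up most of the rise of the fusion partners (1.12 to 4.79 CPM on average). BCR stood at 6.68 and 8.11 CPM and did not pass the test described below. TAL1 (8.34 to 1.92 CPM) made up most of the blood-cell sum, while ITGAM went from 0 counts to 3, 4 and 2. The summed levels thus moved mainly through VIM, ABL1 and TAL1, and the part of these markers in the results was not tested.

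Levels are CPM, counts per 1000000 of a library after TMM scaling. Fold changes compare the knockout with the wild type and are on the log2 scale. More mRNA and more ribosomes on each mRNA both add footprints, and the counts do not tell them apart; likewise, fewer expressing cells and less RNA per cell look the same. Adjusted p-values, printed as edgeR adjusted p, come from the quasi-likelihood test with Benjamini-Hochberg adjustment over all 11335 rows, and a gene passed below 0.05. At that threshold 74.4% of all tested genes passed, 37.8% as higher and 36.6% as lower. Of the 9 network genes, 5 rose, 1 fell and 3 did not pass, so 66.7% were called, a share near that of all genes. MYCN is among the 5, although its counts let it into the test through the knockout libraries alone. The libraries of the groups did not overlap for 6 of the 9, against 83.5% of all tested genes, and 5 of the 9 passed when a fold above 1.5 was required, against 36.5%. Their median log2 fold change was 0.65, against 0.02 over all tested genes. This median and the count past a fold of 1.5 include MYCN. None of these counts, nor the median, is therefore a result about the network. What the data give is the direction and size for each partner.

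**Figure D1:**
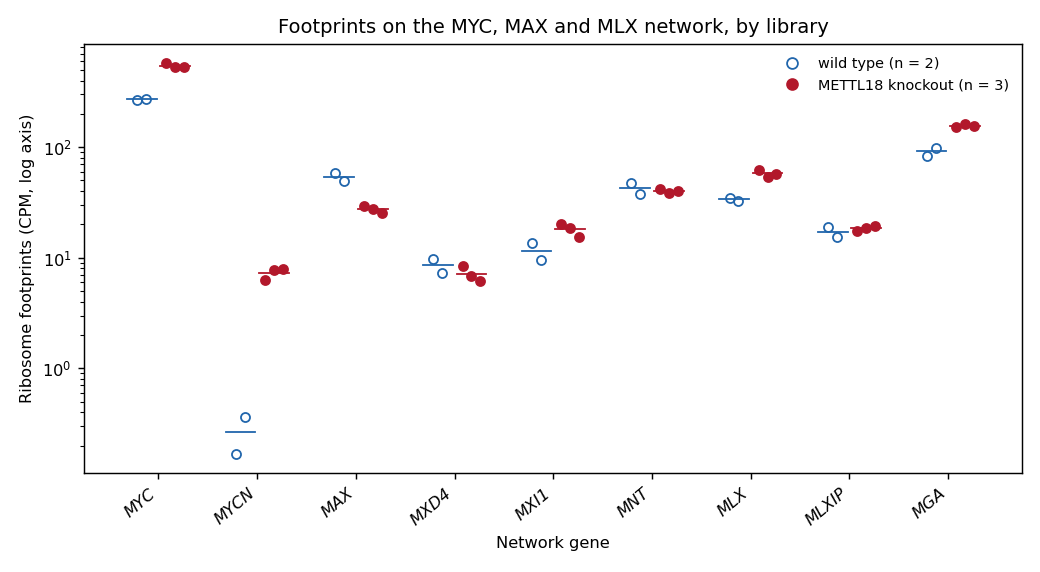
Ribosome footprints on the 9 network genes in CPM (log axis) for each wild-type library (open blue, n = 2) and METTL18 knockout library (filled red, n = 3), with a line at each group mean. MYC, MYCN, MXI1, MLX and MGA lie higher in every knockout library and MAX lower in every one, while MXD4, MNT and MLXIP overlap between the groups.

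MYC, the transcription factor at the head of the network, was the most footprinted of these genes in both groups. Its row (transcript ENST00000621592, hg38 chromosome 8, 127736069 to 127741434, plus strand) stood at 268 and 276 CPM in the wild-type libraries and at 572, 535 and 532 CPM in the knockout libraries. All 3 knockout libraries lay far above both wild-type libraries, and the groups did not overlap. The mean rose from 272 ± 5.40 CPM (SD, n = 2) to 546 ± 22.3 CPM (SD, n = 3). The log2 fold change was 1.01 (SE 0.0462, edgeR adjusted p = 1.3e-22). MYC rose more than 87.1% of tested genes did, which is inside the range of ordinary changes between these groups. Per kb of coding sequence it ranked 881 of 11284 genes in the wild type and 515 of them in the knockout libraries.

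MYCN, the paralogue of MYC known from neuroblastoma and early development, went from near absence to a low level. Its row held 1 and 2 wild-type counts and 96, 126 and 124 knockout counts (transcript ENST00000281043, hg38 chromosome 2, 15940564 to 15947007, plus strand). After scaling that is 0.168 and 0.366 CPM against 6.34, 7.74 and 7.87 CPM. The summed ratio was 27.9, with an exact 95% counting interval of 9.46 to 136 that reflects the 3 wild-type counts; such intervals cover counting error only. MYCN passed the low-count filter through the knockout libraries alone, so a gene like it had to differ once tested, and its call (edgeR adjusted p = 6.89e-13) supports nothing beyond these counts. Even so, MYCN in the knockout reached only 5.26 ± 0.609 CPM per kb (SD, n = 3), against 401 ± 16.4 for MYC. MYCNOS, an antisense RNA, overlaps 98 of the 1392 coding bases, and the sources used here do not say whether counting used strand. MYCL, a further paralogue that lies outside the 9 members, rose from 3.68 ± 0.0321 to 6.46 ± 0.525 CPM (log2 fold change 0.81, edgeR adjusted p = 0.00141).

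MAX, which MYC needs to bind DNA, was the sole member that fell. Its row (transcript ENST00000358664, hg38 chromosome 14, 65075544 to 65102470, minus strand) stood at 58.3 and 49.0 CPM in the wild type and at 29.5, 27.8 and 25.4 CPM in the knockout. Every knockout library was below both wild-type libraries by a wide margin. The mean went from 53.6 ± 6.53 CPM (SD, n = 2) to 27.6 ± 2.05 CPM (SD, n = 3). The log2 fold change was -0.96 (SE 0.0883, edgeR adjusted p = 6.79e-13). Only 15.8% of tested genes had a lower fold change. MAX moved opposite to MYC, by a similar amount on the log2 scale with TMM factors; with total-count scaling MYC stood at 0.73 and MAX at -1.23. An antisense RNA, AL139022.1, overlaps 108 of the 480 coding bases of this short gene.

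The MAX partners that repress did not move as a block. MXI1, a MXD protein that antagonises MYC, rose from 13.5 and 9.51 CPM in the wild-type libraries to 20.3, 18.6 and 15.4 CPM in the knockout libraries. The lowest knockout library was just above the higher wild-type library. The log2 fold change was 0.65 (SE 0.150, edgeR adjusted p = 0.000192), and it ranged from 0.42 (without wild type replicate 2, edgeR adjusted p = 0.0436) to 0.93 when libraries were left out in turn. An antisense RNA, AL360182.2, overlaps 205 of its 885 coding bases. The row is transcript ENST00000332674 on hg38 chromosome 10, 110207605 to 110287365, plus strand.

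MXD4, another MXD protein, usually found in differentiating cells, stood at 9.77 and 7.32 CPM in the wild type and 8.39, 6.82 and 6.15 CPM in the knockout, and the groups overlapped. Its log2 fold change of -0.27 (SE 0.185) did not pass (edgeR adjusted p = 0.179), and it has the lowest counts of the members after MYCN. It passed as lower without METTL18 knockout replicate 1 (-0.41, edgeR adjusted p = 0.0487); over all single-library omissions the adjusted p ran from 0.0487 to 0.892. MNT, the broadly expressed repressor of the family, stood at 47.1 and 37.9 CPM against 41.5, 38.5 and 39.9 CPM, with all 3 knockout values between the wild-type values. Its log2 fold change was -0.09 (SE 0.0875, edgeR adjusted p = 0.329), and it passed as lower without wild type replicate 2 (-0.24, edgeR adjusted p = 0.0438), within an omission range of 0.0438 to 0.585. MXD1, a repressor outside the 9 members, stood at 11.5 ± 1.30 and 10.2 ± 0.632 CPM (edgeR adjusted p = 0.283). The rows of MXD4 and MNT are transcripts ENST00000337190 (hg38 chromosome 4, 2247432 to 2262294) and ENST00000174618 (hg38 chromosome 17, 2384060 to 2401118), both on the minus strand.

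MGA rose. Its row (transcript ENST00000219905, hg38 chromosome 15, 41660412 to 41769943, plus strand) stood at 83.7 and 99.2 CPM in the wild type and 151, 162 and 157 CPM in the knockout, with no overlap. The log2 fold change was 0.78 (SE 0.0627, edgeR adjusted p = 1.26e-14). With 9195 coding bases MGA is by far the longest member, so its high CPM corresponds to a modest 17.1 ± 0.590 CPM per kb in the knockout (SD, n = 3).

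In the MLX arm the hub rose while its glucose-sensing partner did not pass. MLX (transcript ENST00000246912, hg38 chromosome 17, 42567072 to 42573239, plus strand) stood at 35.0 and 32.7 CPM in the wild type and 62.1, 54.1 and 57.7 CPM in the knockout. Both groups were tight and well apart, and the log2 fold change was 0.77 (SE 0.0866, edgeR adjusted p = 1.68e-10). PSMC3IP overlaps 770 exon bases of MLX on the opposite strand but none of its coding bases; PSMC3IP also rose, from 4.82 ± 0.0893 to 9.50 ± 0.257 CPM. MLXIP (transcript ENST00000319080, hg38 chromosome 12, 122078722 to 122147347, plus strand) stood at 18.9 and 15.4 CPM against 17.6, 18.6 and 19.4 CPM, and the groups overlapped. Its log2 fold change was 0.11 (SE 0.122, edgeR adjusted p = 0.422). MLXIPL (ChREBP), the liver-type partner of MLX, had 1 and 0 wild-type counts and 1, 1 and 3 knockout counts and was not tested.

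**Figure D2:**
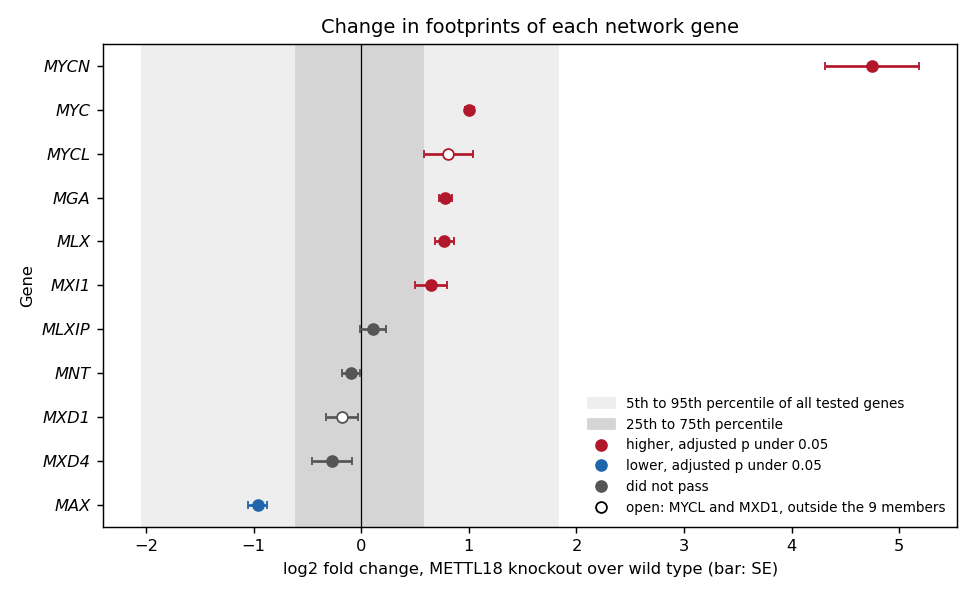
Log2 fold change of each network gene, knockout over wild type, with its SE; filled points are the 9 members and open points MYCL and MXD1, red higher, blue lower and grey not past an adjusted p of 0.05. Of these genes, MYCN alone lies outside the band from the 5th to the 95th percentile of all tested genes (-2.04 to 1.83).

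With libraries scaled by total counts in place of TMM, a setting chosen after seeing the data, the median of all genes moved from 0.02 to -0.26 and the calls over all genes from 4288 higher and 4143 lower to 2982 higher and 5597 lower. The 5 risers stayed higher and MAX stayed lower under that scaling (log2 fold change 0.73 for MYC and -1.23 for MAX), MXD4 (-0.54) and MNT (-0.37) passed as lower, and MLXIP turned to -0.16 without passing. That made 5 of 9 higher and 3 lower, 8 in all, where 26.3% of all genes were higher, 49.4% lower and 75.7% called. Each of these values carries the shift of all genes.

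Windows of 28 bases of the coding sequence were compared with GENCODE release 29 transcripts on the same strand only. Every window was unique to its gene for 8 of the 9 members, and 96.0% of windows were for MLX. The comparison could not find the antisense RNAs that overlap MYCN, MAX and MXI1.

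Ratios within a library do not depend on scaling and show how the partners stood relative to each other. Per kb of coding sequence, MYC exceeded MAX 1.62-fold and 1.98-fold in the wild-type libraries and 6.83-fold, 6.77-fold and 7.36-fold in the knockout libraries. The mean ratio went from 1.80 ± 0.255 (SD, n = 2) to 6.99 ± 0.327 (SD, n = 3), a change of 1.96 on the log2 scale. All 3 knockout ratios lay far above the wild-type ones. MYC and MYCN together exceeded the sum of MXD4, MXI1, MNT and MGA 2.94-fold and 3.69-fold in wild-type libraries and 5.54-fold, 5.56-fold and 5.89-fold in knockout libraries, a log2 change of 0.78. MXD3 is not in that sum. In the other arm, MLXIP per MLX fell from 0.175 and 0.152 to 0.0917, 0.112 and 0.109, a log2 change of -0.65. No test was made on these ratios, since the genes were chosen with earlier results known. They compare footprints, not protein amounts.

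**Figure D3:**
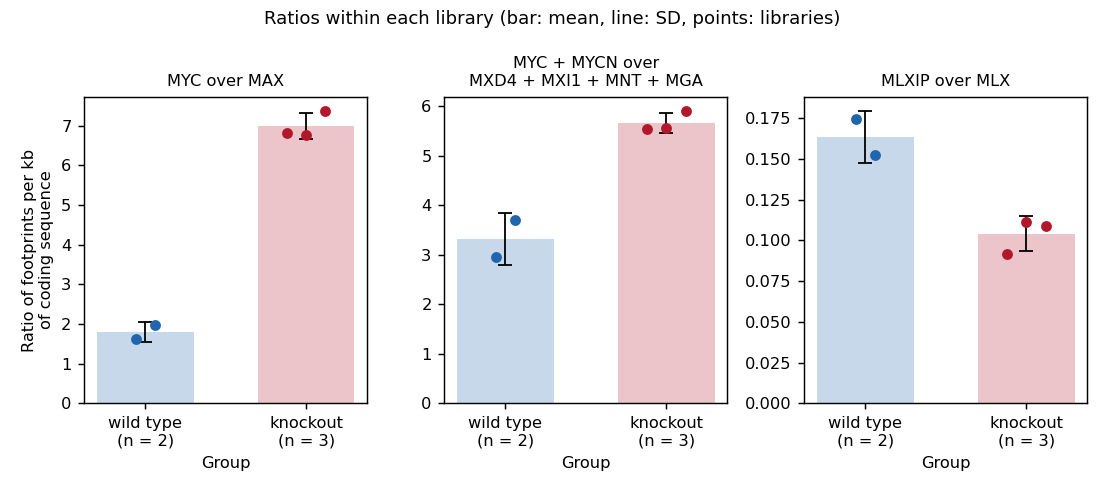
Ratios of footprints per kb of coding sequence within each library (points), with group means (bars, from 0) and SD (lines): MYC over MAX, MYC plus MYCN over MXD4, MXI1, MNT and MGA, and MLXIP over MLX. The first 2 ratios are higher in every knockout library than in either wild-type library, and the third is lower in every one.

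The order of levels per kb changed around MAX. In the wild type the order was MYC (200 ± 3.97 CPM per kb, SD, n = 2), MAX (112 ± 13.6), MLX (37.9 ± 1.80), MNT (24.3 ± 3.76), MXD4, MXI1, MGA, MLXIP and MYCN. MXD4, MXI1 and MGA overlapped with their neighbours there, at 13.6, 13.0 and 9.94 CPM per kb, and the other neighbours did not. In the knockout MLX (64.9 ± 4.49, SD, n = 3) and MAX (57.5 ± 4.27) overlapped in the second and the third place behind MYC, and MNT (22.9 ± 0.881), MXI1 (20.5 ± 2.82) and MGA overlapped in turn, above MXD4 (11.4 ± 1.83), MLXIP (6.71 ± 0.326) and MYCN. Of the summed footprints per kb on the 6 partners of MAX, MYC took 76.6% ± 2.82 (SD, n = 2) in wild-type cells and 83.9% ± 0.357 (SD, n = 3) in the knockout. The share of MNT went from 9.33% ± 1.28 to 4.79% ± 0.129 and that of MXD4 from 5.22% ± 0.971 to 2.37% ± 0.279. Neither gene passed on its own, at 24.3 and 22.9 CPM per kb for MNT and 13.6 and 11.4 for MXD4. MYC makes up most of the sum and went from 200 to 401 CPM per kb. The share of a gene that stays level must then fall, so these shares are no separate change. MXI1 (4.97% and 4.28%) and MGA (3.82% and 3.58%), which rose, kept shares within about the spread of the libraries.

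The E-box that MYC, MXD and MGA pairs recognise, CACGTG, reads the same on both strands and was searched in RefSeq promoter windows (build GRCh38.p14, 250 bases before to 50 after a start). Of 35116 windows, 7.26% held it, and of 8835 tested symbols with a window, 12.6% held it in at least 1. Of 8 members with a window, MLX, MNT and MXD4 held it. Their 250 bases before the start are shown with the E-box in capitals, next to those of APEX1 and CDK4, the pair of growth genes with 3 E-boxes each, which were chosen after their values were seen. Because that pair was picked with its values known, its differing outcomes show nothing about the E-box, whose part was not tested. The outcomes named below are those with TMM factors. With total-count scaling MNT, MXD4 and CDK4 passed as lower.
MLX, which rose, chr17:42566850-42567099, plus strand: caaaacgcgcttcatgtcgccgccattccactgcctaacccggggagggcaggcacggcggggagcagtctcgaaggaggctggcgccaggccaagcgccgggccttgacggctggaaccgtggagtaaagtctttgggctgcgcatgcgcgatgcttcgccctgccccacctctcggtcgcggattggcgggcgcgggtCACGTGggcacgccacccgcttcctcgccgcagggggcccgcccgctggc
MNT, which did not pass, chr17:2401061-2401310, minus strand: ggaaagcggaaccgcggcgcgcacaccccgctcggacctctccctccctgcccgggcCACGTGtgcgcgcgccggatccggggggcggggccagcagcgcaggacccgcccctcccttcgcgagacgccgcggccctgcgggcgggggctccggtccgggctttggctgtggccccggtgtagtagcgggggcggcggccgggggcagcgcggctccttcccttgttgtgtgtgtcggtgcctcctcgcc
MXD4, which did not pass, chr4:2262110-2262359, minus strand: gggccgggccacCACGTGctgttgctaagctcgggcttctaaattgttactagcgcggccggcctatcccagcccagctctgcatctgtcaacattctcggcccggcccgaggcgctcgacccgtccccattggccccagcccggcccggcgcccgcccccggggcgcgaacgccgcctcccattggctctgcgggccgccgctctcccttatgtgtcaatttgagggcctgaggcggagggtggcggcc
APEX1, which rose, chr14:20454976-20455225, plus strand: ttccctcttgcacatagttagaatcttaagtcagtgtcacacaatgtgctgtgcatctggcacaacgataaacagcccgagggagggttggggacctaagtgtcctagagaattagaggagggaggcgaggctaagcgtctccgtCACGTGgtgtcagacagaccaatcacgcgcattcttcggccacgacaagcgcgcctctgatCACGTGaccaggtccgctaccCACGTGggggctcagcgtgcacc
CDK4, which did not pass, chr12:57752311-57752560, minus strand: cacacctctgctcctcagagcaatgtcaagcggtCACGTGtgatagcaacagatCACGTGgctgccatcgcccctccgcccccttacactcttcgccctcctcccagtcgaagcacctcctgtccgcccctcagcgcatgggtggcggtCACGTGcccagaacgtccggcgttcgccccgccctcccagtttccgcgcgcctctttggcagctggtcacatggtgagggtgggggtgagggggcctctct
The E-box of MLX begins 50 bases before the RefSeq start of its window, that of MNT 193 and that of MXD4 238. These RefSeq starts are not those of the footprint rows. For each gene shown, the row starts inside the printed stretch, at 42567072 for MLX, 2401118 for MNT and 2262294 for MXD4. Part of each printed stretch therefore lies within the transcript of the row. Across all tested symbols with a window, the E-box was in 12.8% of those that rose, 11.4% of those that fell and 14.0% of those that did not pass. A match in such a window is a description of the letters and does not show that a factor binds there.

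Growth genes known to be activated by MYC mostly rose. Of 33 listed, 32 were tested, and 23 rose, 5 fell and 4 did not pass, which is 71.9% higher against 37.8% of all genes. Their median log2 fold change was 0.58, against 0.02 over all genes. APEX1, a DNA repair endonuclease, rose from 76.4 ± 2.74 to 277 ± 7.80 CPM (log2 fold change 1.86), and the mitochondrial chaperonins HSPE1 (1.54) and HSPD1 (0.95) rose. TERT, the catalytic subunit of telomerase and named after its value was seen, rose from 1.86 ± 0.481 to 7.95 ± 0.182 CPM (2.10). SHMT2, the mitochondrial serine hydroxymethyltransferase, fell from 633 ± 10.3 to 254 ± 4.90 CPM (-1.32). CDK4, which drives cells out of G1 and has 3 E-boxes in its window, stood at 139 ± 0.0598 and 130 ± 6.38 CPM and did not pass (edgeR adjusted p = 0.131). It passed as lower with total-count scaling (-0.37, edgeR adjusted p = 3.69e-07). With total-count scaling the list had 18 higher and 9 lower, where 26.3% of all genes were higher and 49.4% lower. Of 25 list genes with a promoter window, 15 held the E-box: 12 of 21 that rose, 1 of 2 that fell and 2 of 2 that did not pass.

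Genes known to be held down by MYC were mostly lower. Of 8 listed, 6 were tested, and 4 fell, 1 rose and 1 did not pass, so 66.7% were lower against 36.6% of all genes, with a median of -2.13. CDKN1A, the p21 inhibitor of cyclin-dependent kinases, stood at 218 and 224 CPM in the wild type and 11.6, 10.8 and 11.2 CPM in the knockout (-4.30). GADD45A, a growth arrest gene (-2.47), NDRG1, a differentiation gene (-2.37), and CEBPA, a transcription factor of differentiation (-1.89), fell. CDKN1A and GADD45A are also targets of p53, so this list does not separate the 2 regulators. CDKN1B, the p27 inhibitor, rose from 23.3 ± 0.495 to 38.8 ± 3.21 CPM (0.74), and NDRG2 stood at 26.8 ± 1.16 and 24.3 ± 1.30 CPM (edgeR adjusted p = 0.203). With total-count scaling the list had 1 higher and 5 lower, NDRG2 among the latter (-0.41, edgeR adjusted p = 0.000468). Under that scaling 26.3% of all genes were higher and 49.4% lower. None of the 6 genes of this list with a promoter window held the E-box, and 12.6% of tested symbols with a window did. So few genes do not show a difference. CDKN2B had 2 and 3 wild-type counts and 9, 2 and 4 knockout counts, and GAS1 had at most 3 in any library.

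Targets of MLXIP and MLXIPL moved in both directions. Of 10 listed, 7 were tested, and 6 rose and 1 fell, which is 85.7% higher and 14.3% lower against 37.8% and 36.6% of all genes, with a median of 0.70. With total-count scaling 5 were higher and 1 lower, where 26.3% of all genes were higher and 49.4% lower. TXNIP, the arrestin-like inhibitor of glucose uptake that MLXIP and MLX are best known to drive, rose from 4.88 and 6.40 CPM in the wild type to 15.7, 16.0 and 15.1 CPM in the knockout (log2 fold change 1.47, SE 0.168, edgeR adjusted p = 2.39e-10). ARRDC4, its close relative and the other classic target, went the opposite way, from 5.05 and 5.49 CPM to 1.06, 1.78 and 1.08 CPM (-1.99, SE 0.290, edgeR adjusted p = 7.68e-08). Neither pair of groups overlapped. HK2, the hexokinase that makes glucose 6-phosphate, rose from 101 and 106 CPM to 312, 297 and 292 CPM (1.54). KLF10 (0.83), the clock-linked repressor BHLHE40 (0.70) and fatty acid synthase FASN (0.49) rose. Acetyl-CoA carboxylase ACACA rose as fitted (0.25) and stood at -0.0190 without passing under total-count scaling.

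**Figure D4:**
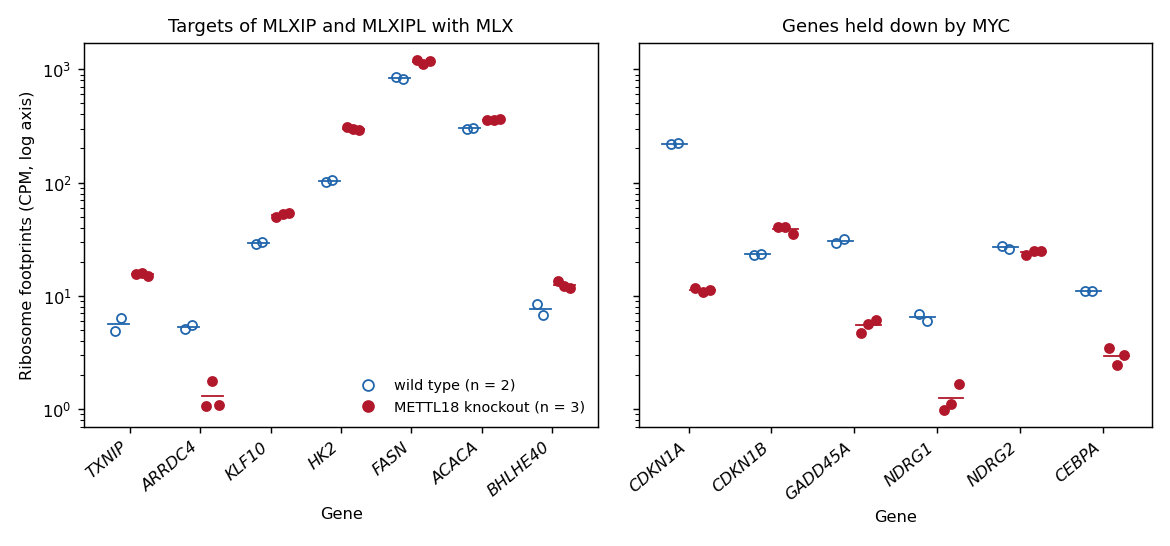
Footprints in CPM (log axis) by library for the 7 tested targets of MLXIP and MLXIPL (left) and the 6 tested genes known to be held down by MYC (right), wild type open blue (n = 2) and knockout filled red (n = 3), with lines at group means. TXNIP and ARRDC4 separate in opposite directions, and CDKN1A falls from 218 and 224 CPM to between 10.8 and 11.6 CPM.

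The cofactors of the network split. Of 17 MYC coactivators and chromatin partners, 6 rose, 6 fell and 5 did not pass (median 0.06). TRRAP, the scaffold of the acetyltransferase complexes that MYC recruits, fell from 249 ± 10.1 to 112 ± 2.46 CPM (-1.15). EP400, an ATPase of the TIP60 complex, fell (-0.61). RUVBL1, another ATPase of the TIP60 complex, rose (0.65). Of 13 tested genes of MYC protein turnover, 5 rose, 3 fell and 5 did not pass (median 0.13). FBXW7, the ubiquitin ligase receptor that marks phosphorylated MYC for destruction, stood at 24.6 and 23.2 CPM in the wild type and 8.12, 9.52 and 8.44 CPM in the knockout (-1.46, SE 0.126, edgeR adjusted p = 1.2e-13). HUWE1, another ligase of MYC, fell (-0.34), and SET, an inhibitor of the phosphatase PP2A (0.35), and TRIM33 (0.47) rose, with SET not passing under total-count scaling (0.0812).

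Of 19 tested genes of the SIN3 and HDAC corepressors that MXD proteins and MNT bring, 7 rose, 7 fell and 5 did not pass (median -0.03). SIN3A, the scaffold that binds MXD proteins directly, rose from 89.7 ± 1.67 to 237 ± 6.01 CPM (1.40). The deacetylase HDAC1 (-0.72) and the corepressor NCOR1 (-0.87) fell. SIN3B, the paralogue of SIN3A and named after its value was seen, stood at 31.7 ± 0.742 and 33.3 ± 0.509 CPM and did not pass (log2 fold change 0.07, edgeR adjusted p = 0.476; -0.20 and lower with total-count scaling). These 3 sets of cofactors had 70.6%, 61.5% and 73.7% of genes called, against 74.4% of all genes, and are no result about the sets.

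Partners of MGA in PRC1.6 rose more often than they fell, but few passed when a fold above 1.5 was required. Of 14 tested, 9 rose, 3 fell and 2 did not pass (64.3% higher against 37.8% of all genes), with a median of 0.41. CBX3, a heterochromatin protein, rose from 303 ± 7.37 to 746 ± 27.6 CPM (1.30). PCGF6, the subunit that defines this Polycomb complex, rose from 31.2 ± 2.45 to 57.0 ± 1.43 CPM (0.87), and CBX1 rose (0.54). HDAC1, which belongs to this list as well, fell. With total-count scaling 7 were higher and 4 lower, where 26.3% of all genes were higher and 49.4% lower. With a fold above 1.5 required, 2 of the 14 were higher and 1 lower, and 36.5% of all genes passed.

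Of 15 germline genes known to be held down by PRC1.6, 13 were in the table and 7 passed the low-count filter. Of those 7, 5 rose and 2 did not pass, which is 71.4% higher against 37.8% of all genes (median 0.85, the same with genes at 0 in the wild type set to their bound). With total-count scaling 3 were higher and 1 lower, the latter being ZCWPW1 (-1.36, edgeR adjusted p = 0.0300). Of all genes 26.3% were higher and 49.4% lower under that scaling. A gene silent in the wild type could pass the filter only through the knockout libraries, so this count supports nothing. MEIOB, needed for recombination in meiosis, had 0 wild-type counts and 1239, 1480 and 1483 knockout counts, and HORMAD1, a protein of the meiotic chromosome axis, had 0 counts and then 21, 16 and 17. Set against 3 counts for both wild-type libraries together (0.263 CPM), HORMAD1 was at least 4.37-fold higher. STAG3, a meiotic cohesin (0.89), and TDRKH, a factor of the piRNA pathway (0.42), rose, TDRKH not passing under total-count scaling (0.15). DDX4, MAEL, SLC25A31, TAF7L, TEX101 and TDRD1 had at most 6 counts in any library. SLC25A31, whose promoter window holds 4 E-boxes, had 1 count in all 5 libraries together.

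**Figure D5:**
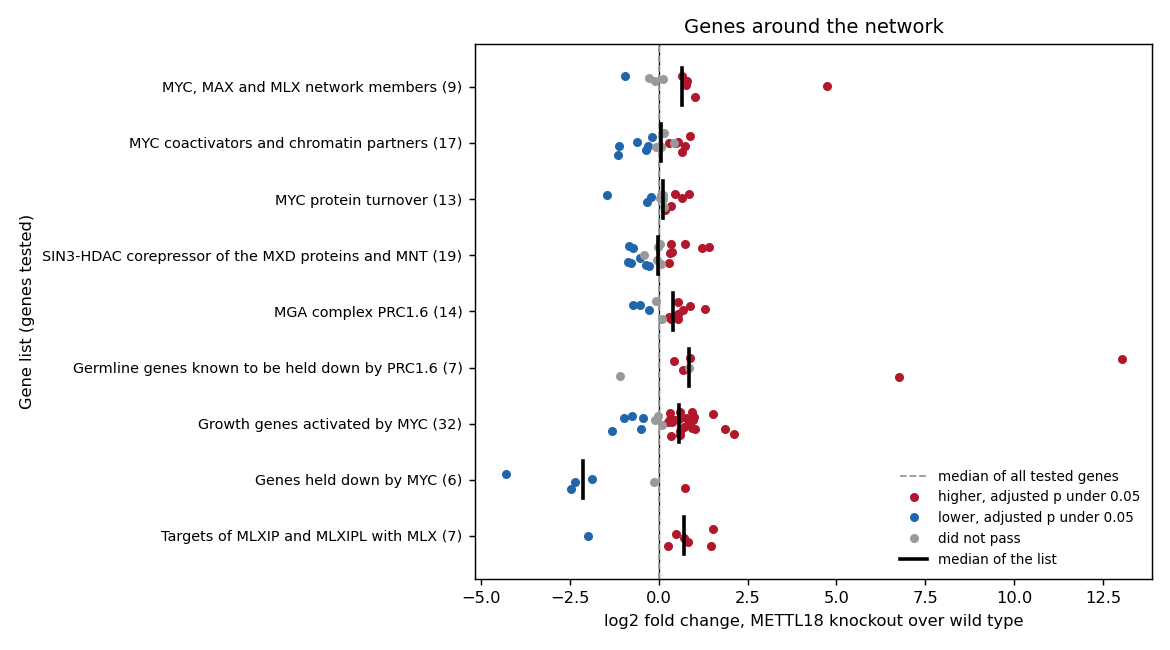
Log2 fold changes, knockout over wild type, of the tested genes of each list (points; red higher, blue lower, grey not past an adjusted p of 0.05), with the list median as a black bar and the median of all genes as a dashed line. Medians of cofactor lists sit near 0, that of growth genes at 0.58, and that of genes held down by MYC at -2.13.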

How the data were processed

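Ribosome footprints were measured in 5 libraries, grouped by the genotype in the titles. The authors deposited raw counts per transcript in 1 table. Per the submitters' processing notes, Bowtie and hg38 were used, with no version; the sources used here do not give the annotation, the counter or its handling of multi-mapping reads. Per the labels' protocols, monosomes were isolated with cycloheximide present and footprints of 28-32 bases were selected.

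For each symbol the row with the most counts was used. GENCODE release 29 matched 13968 rows (99.2%) and gave coordinates and coding length; levels per kb divide CPM by coding length. The test was edgeR's quasi-likelihood F test (version 4.0.16, R 4.3.3) with robust dispersion and TMM factors; genotype was its one term. Rows entered it through filterByExpr (min.count 10, min.total.count 15). The procedure was tested on simulated data with few changed rows. In the real data most rows passed, so that test does not bear on the choice of scaling. The SE is the absolute log2 fold change divided by the square root of F. No libraries of a group agreed within counting noise (chi-square per degree of freedom 1.14 for the wild-type pair, 2.73 to 3.48 for the knockout pairs), so none was merged as a repeat deposit; this does not show that they come from separate cultures. Alternatives used limma 3.58.1, DESeq2 1.42.0, other scalings, filters, a replicate block, and each library left out. The members and lists were chosen with earlier results of these data known. Named were all members, METTL18, MYCL, MXD1 and MLXIPL, every tested gene of the lists of MLXIP targets and of genes held down by MYC, and up to 4 passing genes with the smallest adjusted p of each other list. Of these, 2 are not reported here. MXD3, a member named by the rule, was not analysed here.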

Additional observations from a re-analysis of the deposited data

How the results depend on the processing

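Of the 9 network genes, the calls of MYC, MAX, MLX and MGA kept their direction and threshold side under every alternative run, single-library omissions included; MYCN was not tested with a mean CPM of at least 10. MXI1 did not pass when a fold of 1.5 was required (adjusted p = 0.323), a setting under which 4140 genes passed against 8431. That setting also left 4 of 17 MYC coactivators, 2 of 13 turnover genes and 6 of 19 SIN3 and HDAC genes. Of the other lists it left 3 of 14 PRC1.6 genes, 2 of 7 germline genes and 15 of 32 growth genes. It further left 4 of 7 MLXIP targets, 4 of 6 genes held down by MYC, and 0 of MYCL and MXD1. Over all tested genes 36.5% passed under it. A mean CPM of at least 10 left 2 germline genes, 3 of the genes held down by MYC, and 0 of MYCL and MXD1 called. Fewer genes were tested under it, and 6111 of 7717 were called. Total-count scaling called both MYCL and MXD1 (2 against 1) and put ACACA at -0.0190 and SIN3B at -0.20, against 0.25 and 0.07 as fitted. In raw counts in place of counts per kb, which give the long MGA more weight, the log2 change of MYC and MYCN against the repressing partners was 0.49 in place of 0.78. With MYCL and MXD1 added to the sums, an unplanned alternative, it was 0.87. Leaving out single libraries gave 0.62 to 0.94 for that ratio and 1.82 to 2.11 for MYC against MAX. The range for MLXIP against MLX was -0.75 to -0.55. With the replicate number as a block 8476 genes and 6 network genes were called. The labels do not say what the numbers share, and deviations of same-numbered libraries correlated at 0.00853 and 0.0231. With 3 wild-type counts in all, depth limits the size of the MYCN change to its counting interval.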
